A study of Homo sapiens with 15 samples.

Results

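AFP, ALB and AFM, the albumin family genes that lie side by side on chromosome 4, were followed in K562 cells together with ZBTB20, ZHX2 and ZFHX3, transcription factors known as repressors of AFP. These 6 genes were chosen by name, starting from the low AFP level of the HSP90β-KO libraries. All values of HSP90β-KO against EV are therefore given as a description, with no test for these 6 genes. The resistance table held all 6 of them among 60510 genes and the knockout table held 5 among 17769, AFM being measured in the resistance table only. In each comparison 5 of the 6 passed the filter on low values, which kept genes with a log2 CPM of at least -1 in at least 3 libraries.

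K562 is a human BCR-ABL1+ chronic myeloid leukemia line, and HSP90α and HSP90β, made from HSP90AA1 and HSP90AB1, are the stress-inducible and the constitutive cytosolic isoforms of the HSP90 chaperone. The knockout table held 3 libraries each of empty vector (EV) cells labelled wild type, of HSP90α-KO cells and of HSP90β-KO cells, all transduced with lentivirus for Cas9 and grown without drug. The labels give monoclonal selection for these cells, and the study's proteomics used a named clone of each knockout. The resistance table held 3 libraries each of parental wild-type cells kept long term in DMSO and of PUHr cells, which were picked as clones under rising doses of PU-H71, an inhibitor that binds the N-terminal domain of HSP90. How many clones stand behind each sequenced group was not given, so that, where a group is 1 clone, the effect of a knockout or of resistance and the properties of a clone cannot be told apart. The study calls the replicates independent without saying whether they were separate cultures, and p-values measure only the spread between these libraries. The libraries held 19594381 to 26216730 reads on genes, and 1 read was worth 0.0381 to 0.0518 CPM, the read count scaled to library size. HSP90AA1 stood at 704 ± 18.7 CPM in EV and at 90.4 ± 2.34 CPM in HSP90α-KO, and HSP90AB1 at 2806 ± 21.1 CPM in EV and 1913 ± 25.1 CPM in HSP90β-KO (mean ± SD, n = 3). The erythroid K562 markers were present in all groups, with 11 of 12 tested. By adjusted p alone 6 of them were lower and 4 higher in HSP90α-KO, and 7 lower and 0 higher in HSP90β-KO. In PUHr 6 were lower and 3 higher. Of all genes tested, 54.2%, 34.4% and 51.4% passed the adjusted p alone in these comparisons. In HSP90α-KO 2 of the markers were lower by a log2 fold change beyond 1. The summed level of the markers was 3077 to 3112 CPM in parental and 2339 to 2422 CPM in PUHr libraries. It was lower than EV in both knockouts too, at 1052 to 1069 CPM in EV, 944 to 972 CPM in HSP90α-KO and 935 to 949 CPM in HSP90β-KO.

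AFP is the main plasma protein of the fetal liver and yolk sac, and its gene is shut down in hepatocytes around birth. ALB, made by the neighbouring gene, takes its place as the carrier protein of adult plasma, and AFM is a further relative that carries vitamin E. The liver factors FOXA and C/EBP bind the promoters and enhancers shared by the cluster, while ZHX2 and ZBTB20 are needed for the postnatal silencing of AFP in mouse liver and ZFHX3, first described as ATBF1, binds an AT-rich element of the AFP enhancer. AFP is a serum marker of liver and germ cell tumors and is not a characteristic gene of erythroid cells.

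In GRCh38 (GENCODE v44), ALB (ENSG00000163631) lay at chr4:73397114-73421482, AFP (ENSG00000081051) at chr4:73431138-73456174 and AFM (ENSG00000079557) at chr4:73481745-73504001, all on the plus strand. The gap between ALB and AFP was 9.66 kb and that between AFP and AFM 25.6 kb. The promoter windows of RefSeq on GRCh38.p14, with 250 bases before and 50 after the RefSeq start of each gene, are shown here because AFP and ALB differed between groups in the same direction. Capitals mark CCAAT, or ATTGG where it lies on the minus strand, the letters bound by NF-Y. They also mark TATAAA, the letters of the TATA box. Both motifs were searched on both strands, and their matches did not overlap. GATAA, the letters of the GATA site, was searched too and is left in small letters. The windows lay at chr4:73435971-73436270 for AFP, chr4:73404037-73404336 for ALB and chr4:73481495-73481794 for AFM, plus strand, inside the gene bounds of GENCODE for AFP and ALB.
AFP: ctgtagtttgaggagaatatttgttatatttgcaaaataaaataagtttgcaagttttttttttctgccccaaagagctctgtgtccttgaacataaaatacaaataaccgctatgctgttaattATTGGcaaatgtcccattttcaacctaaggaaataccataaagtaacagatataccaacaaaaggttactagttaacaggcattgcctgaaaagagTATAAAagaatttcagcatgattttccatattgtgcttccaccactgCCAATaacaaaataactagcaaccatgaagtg
ALB: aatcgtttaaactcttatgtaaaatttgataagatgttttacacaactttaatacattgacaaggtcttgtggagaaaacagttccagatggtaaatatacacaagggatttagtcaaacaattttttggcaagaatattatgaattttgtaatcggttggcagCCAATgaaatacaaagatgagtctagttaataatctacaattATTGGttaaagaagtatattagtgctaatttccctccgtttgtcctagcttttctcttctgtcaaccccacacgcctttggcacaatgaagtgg
AFM: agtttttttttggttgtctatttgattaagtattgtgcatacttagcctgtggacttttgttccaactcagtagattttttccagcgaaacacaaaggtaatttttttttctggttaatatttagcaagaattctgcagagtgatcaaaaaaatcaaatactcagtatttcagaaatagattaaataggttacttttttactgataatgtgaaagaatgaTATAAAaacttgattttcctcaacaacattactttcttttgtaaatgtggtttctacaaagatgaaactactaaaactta

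All 3 windows were rich in A and T, with a GC content of 33.0% for AFP, 33.3% for ALB and 27.7% for AFM. CCAAT began at position 19 of AFP and -86 of ALB, and its reverse complement at -125 of AFP and -44 of ALB, counted from the RefSeq start as 1. Neither was among the letters of the AFM window, and 1 or the other was found in 34.6% of the 35116 RefSeq promoter windows of this length. TATAAA stood at -29 in AFP and at -30 in AFM, was not among the letters of the ALB window, and was found in 11.5% of all windows. GATAA stood at -223 in ALB and at -48 in AFM, had no match in the AFP window, and was found in 22.7% of all windows. A match of letters is a description and not a binding site.

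AFP was highest in HSP90α-KO, intermediate in EV and lowest in HSP90β-KO, and in the resistance table it was present in parental cells and close to 0 in PUHr. The EV libraries held 1024, 977 and 1266 reads of AFP, the HSP90α-KO libraries 2502, 2403 and 2464, and the HSP90β-KO libraries 26, 27 and 47. No library of the 3 groups overlapped with another group. The level was 48.0 ± 0.828 CPM in EV, 124 ± 2.18 CPM in HSP90α-KO and 1.42 ± 0.386 CPM in HSP90β-KO (mean ± SD, n = 3). The parental libraries held 335, 313 and 298 reads (13.8 ± 0.551 CPM) and the PUHr libraries 5, 1 and 2 (0.111 ± 0.0817 CPM). Every PUHr library lay below every parental library, and the 2 lower PUHr libraries were under 3 reads. In these bulk libraries, fewer cells with AFP RNA and less AFP RNA per cell cannot be told apart. EV and parental levels come from tables normalized separately and were not compared.

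AFP rose in HSP90α-KO by 1.37 on the log2 scale (SE 0.098, adjusted p = 4.4e-12, limma), with all 3 libraries above all EV libraries. The ratio of normalized reads was 2.59, with an exact 95% interval of 2.48 to 2.70 that covers counting error only. The same 3 EV libraries had served to choose AFP. Of the 17039 genes tested in HSP90α-KO, 10.3% were changed, that is past an adjusted p of 0.05 and a log2 fold change of 1 in either direction, 54.2% passed the adjusted p alone, and 57.3% had groups that did not overlap. In HSP90β-KO, the log2 difference of AFP from EV was -5.02 (SE 0.098), and the reads were 33.5-fold lower (interval 27.4 to 41.3). In that comparison, which served to choose AFP, 4.48% of the genes tested were changed, 34.4% passed the adjusted p alone and 46.6% had groups that did not overlap. In PUHr, AFP fell by 6.22 on the log2 scale (SE 0.25, adjusted p = 3.7e-11, limma), and the reads were 122-fold lower with an interval of 61.9 to 285. AFP passed the filter through the 3 parental libraries alone, and without a filter its adjusted p was 1.6e-15 (limma). The background in PUHr was 10.1% of 16503 genes changed, 51.4% past the adjusted p alone and 58.5% with groups that did not overlap.

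ALB had few reads and followed the same order of groups. EV libraries held 18, 19 and 25 reads of ALB, HSP90α-KO libraries 30, 39 and 44, and HSP90β-KO libraries 1, 2 and 2. None of these groups overlapped. The levels were 0.908 ± 0.0490 CPM in EV, 1.91 ± 0.408 CPM in HSP90α-KO and 0.0707 ± 0.0202 CPM in HSP90β-KO. In HSP90α-KO, ALB was higher by 0.99 on the log2 scale (SE 0.27, adjusted p = 0.0033, limma), so that it passed the adjusted p but lay just under the fold threshold. In HSP90β-KO the log2 difference was -2.64 (SE 0.27), and the reads were 12.7-fold lower with a wide interval of 5.16 to 40.5. Parental libraries held 24, 37 and 23 ALB reads and PUHr libraries 1, 0 and 0. ALB fell in PUHr by 3.72 on the log2 scale (SE 0.33, adjusted p = 2.2e-07, limma), where the ratio of parental to PUHr reads was 87.0 with an interval of 15.2 to 3477. ALB too passed the filter through the parental libraries alone, and without a filter its adjusted p was 2.7e-08 (limma). AFM had 2, 0 and 0 reads in parental libraries and 0, 0 and 1 in PUHr, at or under the floor of 3 reads, and no difference was detectable at this depth. GC, the vitamin D binding protein and the remaining family member tabulated, had 1 read in total over the 6 libraries of the resistance table.

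**Figure D1:**
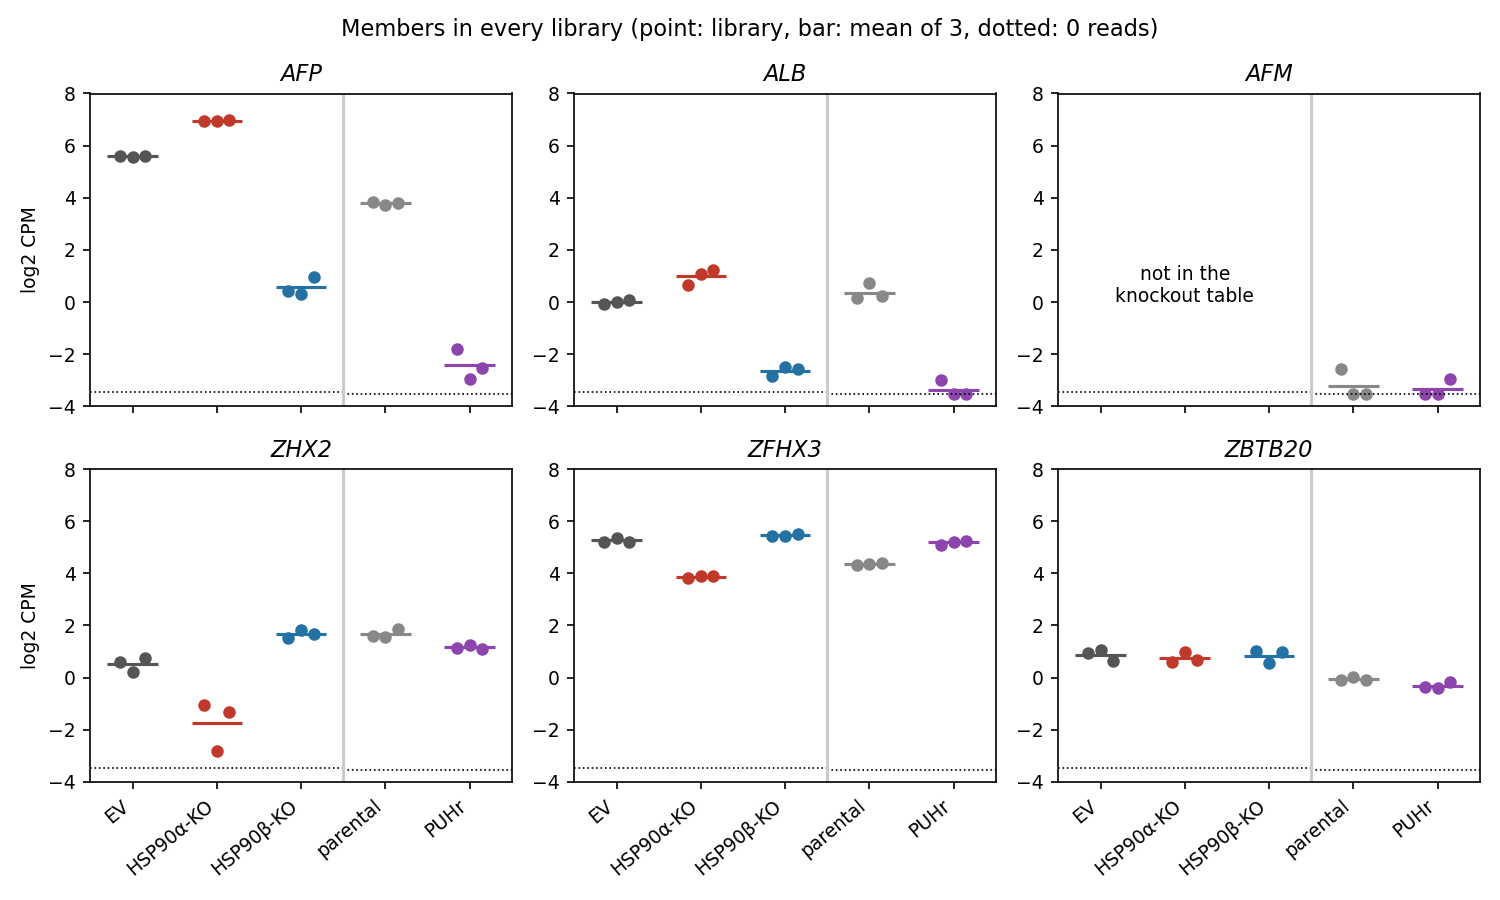
Each panel shows a gene, with the log2 CPM of every library on the y axis and the 5 groups on the x axis; points are libraries, short bars the mean of 3, the dotted line the value of 0 reads, and the vertical line divides the 2 tables. Within the knockout table AFP and ALB were highest in HSP90α-KO and lowest in HSP90β-KO, ZHX2 and ZFHX3 lay in the opposite order, and AFP and ALB of PUHr lay near the line of 0 reads.

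Among the repressors, ZHX2 and ZFHX3 were low in HSP90α-KO, where AFP was high, and the knockout groups overlapped for ZBTB20. ZHX2 (ENSG00000178764, chr8:122781655-122974510, plus strand) had 30, 22 and 42 reads in EV, 8, 1 and 6 in HSP90α-KO, and 58, 81 and 78 in HSP90β-KO. The 3 groups did not overlap, and replicate 2 was the lowest HSP90α-KO library. The levels were 1.36 ± 0.276, 0.250 ± 0.177 and 3.10 ± 0.346 CPM in that order. ZHX2 fell in HSP90α-KO by 2.25 on the log2 scale (SE 0.31, adjusted p = 8.4e-07, limma), and the reads were 5.46-fold lower (interval 3.15 to 10.1). ZHX2 passed the filter through EV and HSP90β-KO, with no HSP90α-KO library reaching it, and without a filter its adjusted p was 7.3e-07 (limma). With a pseudocount of 1 CPM the log2 difference was -0.92, short of the fold threshold. In HSP90β-KO the log2 difference was 1.15 (SE 0.31), with 2.25-fold more reads than in EV (interval 1.76 to 2.90).

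The resistant cells did not show this opposite order for ZHX2. Parental libraries held 70, 68 and 76 ZHX2 reads and PUHr libraries 52, 55 and 46, so that the repressor was lower where AFP was also lower. The log2 difference was -0.52 (SE 0.15, adjusted p = 0.0083, limma), past the adjusted p and short of the fold threshold, with no overlap between groups.

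ZFHX3 (ENSG00000140836, chr16:72782885-73891871, minus strand) was the most highly counted repressor. It had 768, 852 and 974 reads in EV, 289, 284 and 287 in HSP90α-KO, and 899, 1019 and 1137 in HSP90β-KO. HSP90α-KO stood clear of EV with 14.5 ± 0.355 against 38.2 ± 2.47 CPM, while HSP90β-KO, at 43.8 ± 1.10 CPM, lay slightly above EV. ZFHX3 fell in HSP90α-KO by 1.39 on the log2 scale (SE 0.054, adjusted p = 1.1e-17, limma), a 2.63-fold lower count (interval 2.43 to 2.84). The log2 difference in HSP90β-KO was 0.20 (SE 0.054), with no overlap. In the resistance table the parental libraries held 468, 483 and 447 reads and the PUHr libraries 849, 887 and 850. All PUHr libraries were higher, by 0.83 on the log2 scale (SE 0.053, adjusted p = 5.8e-09, limma), short of the fold threshold. ZFHX3 overlaps the antisense gene ZFHX3-AS1, whose log2 difference was 0.16 in HSP90α-KO (adjusted p = 0.022, limma), 0.03 in HSP90β-KO and -0.07 in PUHr. The sources do not say whether reads were counted by strand, without which reads of the overlap could go to either gene.

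ZBTB20 (ENSG00000181722, chr3:114314500-115147292, minus strand) had 39, 41 and 38 reads in EV, 29, 36 and 29 in HSP90α-KO, and 40, 32 and 47 in HSP90β-KO. In CPM the groups overlapped, at 1.76 ± 0.276, 1.59 ± 0.241 and 1.71 ± 0.300. The log2 difference was -0.14 in HSP90α-KO (SE 0.20, adjusted p = 0.58, limma) and -0.04 in HSP90β-KO (SE 0.20). The interval of the read ratio of HSP90α-KO to EV was 0.690 to 1.21, so that a difference of the size seen for ZHX2 would lie outside it. Parental libraries held 20, 22 and 18 reads and PUHr libraries 17, 16 and 18, a log2 difference of -0.25 (SE 0.22, adjusted p = 0.35, limma), although the groups did not overlap in CPM.

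**Figure D2:**
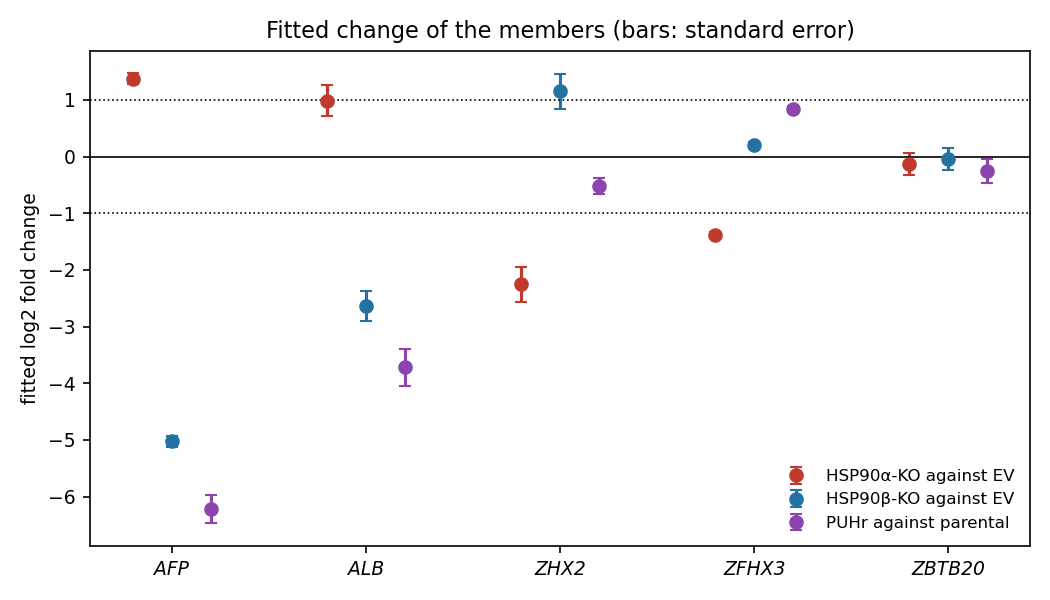
The fitted log2 fold change (y axis) of the 5 genes tested (x axis) is shown for HSP90α-KO and HSP90β-KO against EV and for PUHr against parental, with bars for the standard error and dotted lines at 1 and -1. AFP and ALB pointed down in HSP90β-KO and PUHr and up in HSP90α-KO, whereas ZHX2 was up in HSP90β-KO and down in PUHr.

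Next, the relatives of the repressors and the proteins they meet on promoters were examined. Of 7 genes (ZHX1, ZHX3, ZFHX2, ZFHX4 and the 3 NF-Y subunits), 1 fell in HSP90α-KO, none changed in HSP90β-KO and 1 rose in PUHr, and in both cases it was ZFHX4. These counts, like those of the lists that follow, stand beside 10.3%, 4.48% and 10.1% of all genes changed in the 3 comparisons. ZFHX4, a paralog of ZFHX3, fell in HSP90α-KO from 378, 350 and 424 reads to 8, 6 and 7 (log2 fold change -5.27, SE 0.12, adjusted p = 1.0e-22, limma). It passed the filter in the knockout table through EV and HSP90β-KO, with no HSP90α-KO library reaching it. In PUHr it rose from 2.99 ± 0.235 to 8.52 ± 0.336 CPM. ZFHX3 and ZFHX4 were thus lower than in EV in HSP90α-KO and higher than in parental cells in PUHr. In HSP90β-KO, where AFP was lowest, they parted. ZFHX4 was lower than in EV and ZFHX3 slightly higher, both without overlap and short of the fold threshold. ZFHX4 therefore did not lie opposite to AFP in all comparisons. The median log2 fold change of the 7 genes was 0.06 in HSP90α-KO, 0.05 in HSP90β-KO and 0.04 in PUHr, against -0.01, 0.00 and 0.00 over all genes tested.

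Among other factors known to hold AFP down, the glucocorticoid receptor and COUP-TFII showed the largest differences. Of 9 such genes tested in the knockout table, 1 fell in HSP90α-KO and none changed in HSP90β-KO. Of 10 tested in PUHr, 1 rose and 1 fell. NR3C1, the glucocorticoid receptor and itself an HSP90 client, fell in HSP90α-KO from 22.8 ± 1.10 to 1.87 ± 0.253 CPM (log2 fold change -3.56, SE 0.094, adjusted p = 3.2e-21, limma). In PUHr it fell from 27.4 ± 0.866 to 1.21 ± 0.111 CPM (log2 fold change -4.41, SE 0.10, adjusted p = 1.2e-13, limma). NR3C1 was therefore low both where AFP was high and where AFP was near 0. NR2F2, which encodes COUP-TFII, rose in PUHr from 63.0 ± 1.92 to 143 ± 5.45 CPM (log2 fold change 1.18, SE 0.035, adjusted p = 1.8e-12, limma). In the knockout table NR2F2 stood at 39.4 ± 0.915 CPM in EV, 29.6 ± 0.547 CPM in HSP90α-KO and 73.3 ± 1.93 CPM in HSP90β-KO, and both differences passed the adjusted p without reaching the fold threshold. NR2F2 was thus higher than its control in HSP90β-KO and PUHr, where AFP was lower, and lower than its control in HSP90α-KO. Median log2 fold changes of the list were -0.01, -0.06 and 0.22 in HSP90α-KO, HSP90β-KO and PUHr.

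The liver factors that drive AFP and ALB were split. Of 12 tested in the knockout table, 2 rose and 4 fell in HSP90α-KO and 1 fell in HSP90β-KO, where 10.3% and 4.48% of all genes tested were changed. FOXA2, a pioneer factor of endoderm and liver, had 65, 72 and 85 reads in EV, 753, 663 and 678 in HSP90α-KO, and 43, 29 and 35 in HSP90β-KO. The 3 groups did not overlap and lay in the order of AFP. FOXA2 rose in HSP90α-KO by 3.40 on the log2 scale (SE 0.13, adjusted p = 1.2e-17, limma). It fell in HSP90β-KO by 1.06 (SE 0.13, adjusted p = 3.9e-07, limma). FOXA3 rose in HSP90α-KO from 3.90 ± 0.888 to 9.71 ± 0.532 CPM, but it did not lie in the order of AFP. It was also higher than EV in HSP90β-KO, at 6.18 ± 0.390 CPM (log2 difference 0.68, adjusted p = 1.2e-04, limma). In PUHr it was higher than in parental cells by 0.30 (adjusted p = 0.0038, limma). FOXA1 fell in HSP90α-KO from 4.36 ± 0.622 to 1.04 ± 0.170 CPM. So did GATA6, an endoderm factor, from 7.70 ± 0.868 to 3.40 ± 0.335 CPM, and CEBPA, a regulator of hepatocyte and myeloid genes, by 1.11 on the log2 scale. PROX1, a factor of early liver and lymphatic cells, had 206, 207 and 291 reads in EV and 1, 0 and 2 in HSP90α-KO, where no library reached the filter.

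In PUHr, where 10.1% of all genes tested were changed, 14 liver factors were tested, of which 2 rose and 1 fell. PROX1 rose from 10.4 ± 0.400 to 31.3 ± 0.302 CPM and TBX3, a factor of liver bud growth, from 2, 3 and 4 reads to 49, 31 and 34, passing the filter through PUHr alone. CEBPD fell from 3.49 ± 0.525 to 1.64 ± 0.942 CPM, with PUHr replicate 2 at 65 reads, as many as the lowest parental library, although the groups did not overlap in CPM. FOXA2 had 82, 74 and 52 reads in parental and 59, 54 and 44 in PUHr libraries, which overlapped in reads but not in CPM, and its log2 difference was -0.43 (SE 0.16, adjusted p = 0.040, limma). HNF4A, a core hepatocyte factor, had 0 to 4 reads in these libraries. Median log2 fold changes of the list were 0.04, 0.09 and 0.26 in HSP90α-KO, HSP90β-KO and PUHr.

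**Figure D3:**
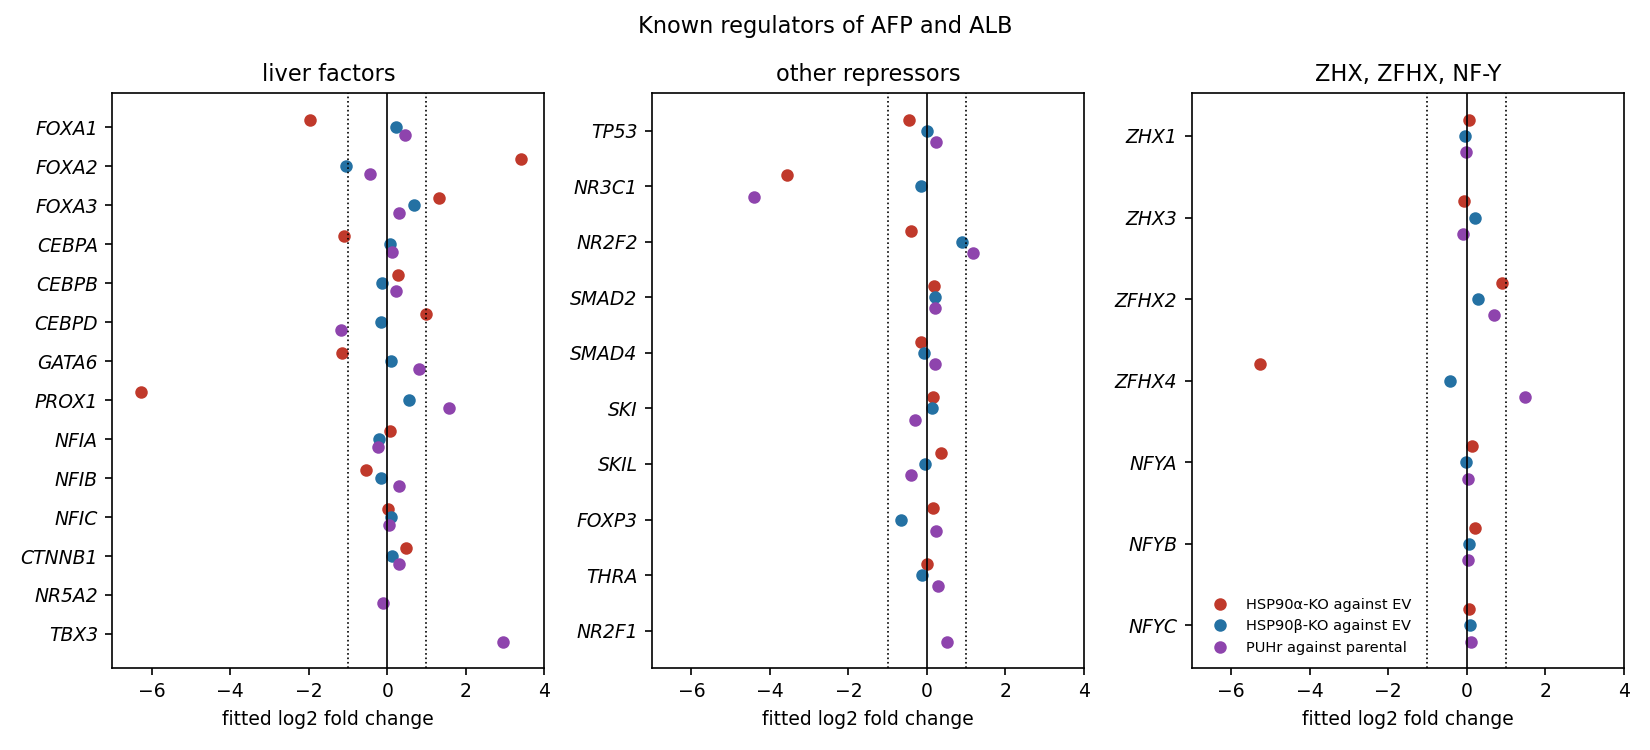
The fitted log2 fold change (x axis) is shown for each tested liver factor, other AFP repressor, and ZHX, ZFHX or NF-Y gene (y axis), with a color for each comparison and dotted lines at 1 and -1. FOXA2 lay at 3.40 in HSP90α-KO and at -1.06 in HSP90β-KO, while NR3C1 was low in HSP90α-KO and PUHr.

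The genes around the cluster were then compared to see how far the difference extended along chromosome 4. Of 33 tested genes within 5 Mb of AFP, other than AFP and ALB, 5 rose and none fell in HSP90α-KO, 1 fell in HSP90β-KO, and 3 rose and 2 fell in PUHr. These are 15.2%, 3.03% and 15.2% of the 33, beside 10.3%, 4.48% and 10.1% of all genes tested. Their median log2 fold changes were 0.18, -0.02 and -0.09. RASSF6, a RAS association domain gene that starts on the minus strand beyond AFM (chr4:73571550-73620631), was the nearest tested gene on that side. It had 5, 3 and 1 reads in EV, 43, 33 and 37 in HSP90α-KO, and 0 in each HSP90β-KO library. RASSF6 rose in HSP90α-KO from 0.140 ± 0.0999 to 1.90 ± 0.195 CPM (log2 fold change 3.21, SE 0.38, adjusted p = 5.1e-08, limma), and it passed the filter through HSP90α-KO alone, with an adjusted p of 4.1e-08 without a filter (limma). It was also the gene counted as lower in HSP90β-KO, where both groups lay under the filter and the difference rests on 9 reads in EV against 0. In the resistance table it had 10, 9 and 4 reads in parental and 1, 0 and 1 in PUHr libraries, below the filter and not tested, and the groups did not overlap. CXCL8, the next tested gene and a chemokine, was higher than EV in both knockouts. It stood at 5.64 ± 0.636 CPM in EV, 11.4 ± 0.608 CPM in HSP90α-KO and 7.97 ± 0.441 CPM in HSP90β-KO. In PUHr it was lower, at 7.01 ± 0.536 against 11.9 ± 0.420 CPM in parental cells (log2 fold change -0.76, adjusted p = 2.4e-06, limma). On the ALB side, the nearest tested gene, ENSG00000250220, had log2 differences of 0.64 in HSP90α-KO (adjusted p = 0.085, limma) and -0.39 in HSP90β-KO (adjusted p = 0.37, limma). For HMGA1P2, a pseudogene whose reads may be shared with its parent gene, they were -0.44 (adjusted p = 0.19, limma) and -0.87 (adjusted p = 0.017, limma). ANKRD17 and COX18, the next genes on that side, had log2 differences of 0.13 and 0.27 in HSP90α-KO, -0.06 and 0.16 in HSP90β-KO, and -0.09 and -0.15 in PUHr.

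**Figure D4:**
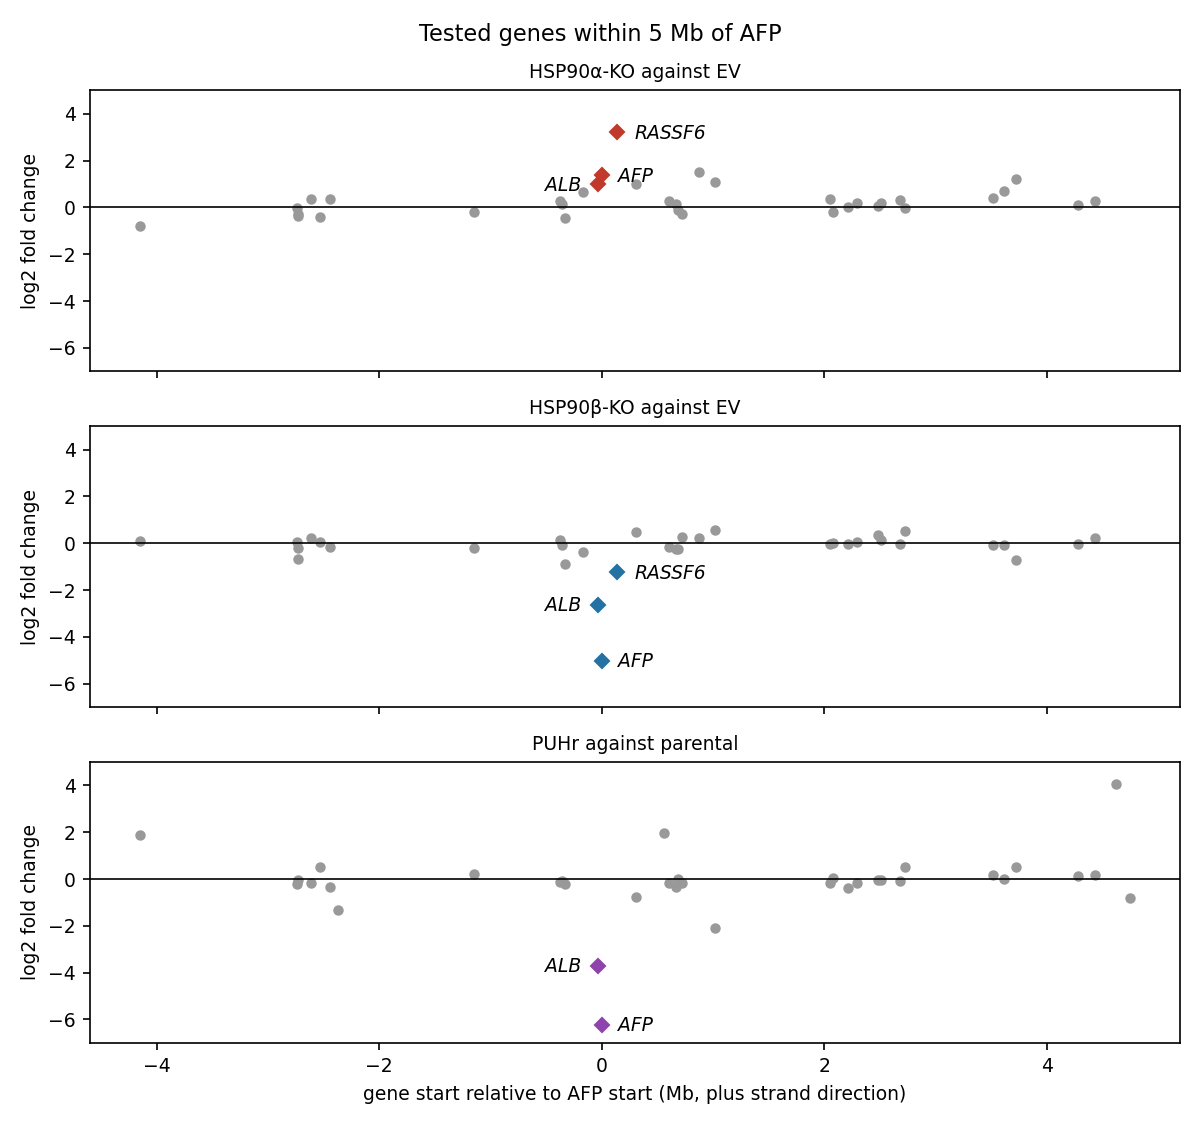
For each comparison, the fitted log2 fold change (y axis) of every tested gene is set against the distance of its lower gene bound from that of AFP in Mb (x axis), with AFP, ALB and RASSF6 as colored diamonds. AFP, ALB and RASSF6 lay below 0 in HSP90β-KO and above 0 in HSP90α-KO, and RASSF6 was below the filter in PUHr.

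The few plasma protein genes tested differed in direction in HSP90α-KO and in PUHr, while both of those tested in HSP90β-KO, TF and C3, were lower than EV without passing the fold threshold. Of 22 hepatocyte plasma protein genes, 14 stayed at 3 reads or fewer throughout the resistance table and 3 were tested there. TF, which encodes the iron carrier transferrin, rose in PUHr from 7.88 ± 0.0307 to 20.7 ± 1.19 CPM and fell in HSP90α-KO from 33.6 ± 0.420 to 4.71 ± 0.178 CPM, with 26.5 ± 0.347 CPM in HSP90β-KO. C3, the central complement protein, fell in PUHr from 9.66 ± 0.488 to 1.61 ± 0.258 CPM and stood at 19.7 ± 0.701, 30.9 ± 0.762 and 12.8 ± 0.432 CPM in EV, HSP90α-KO and HSP90β-KO. VTN, the adhesive plasma protein vitronectin, had 3 to 4 reads in parental and 11 to 17 in PUHr libraries (log2 fold change 1.42), and passed the filter through PUHr alone. Of 2 such genes tested in the knockout table, TF alone changed in HSP90α-KO and none in HSP90β-KO. Of 8 defining hepatocyte markers, ALB alone was listed for the knockouts. Among the parental and PUHr libraries 6 of the 8 stayed at 3 reads or fewer, and ALB alone was tested. In the resistance table the summed level of the 8 was 1.01 to 1.64 CPM in parental and 0.0445 to 0.321 CPM in PUHr libraries. ALB made up most of the parental sum, standing alone at 1.01 to 1.55 CPM in parental and 0 to 0.0402 CPM in PUHr libraries.

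Other oncofetal genes, which like AFP are high before birth and return in tumors, were counted with AFP left out. Of these, 1 of 12 rose and 1 fell in HSP90α-KO, 1 rose and none fell in HSP90β-KO, and of 10 tested in PUHr 1 rose and 1 fell, beside 10.3%, 4.48% and 10.1% of all genes tested. LIN28A, an RNA-binding protein that blocks let-7 maturation, had 5, 5 and 6 reads in EV and 63, 40 and 51 in HSP90α-KO (log2 fold change 3.02, SE 0.30, adjusted p = 2.8e-09, limma), and passed the filter through HSP90α-KO alone, with an adjusted p of 2.4e-09 without a filter (limma). H19, the imprinted long noncoding RNA, lay opposite to AFP in the knockout table, with 2, 4 and 4 reads in EV, 0 in each HSP90α-KO library and 19, 22 and 40 in HSP90β-KO, through which alone it passed the filter. DLK1, a fetal liver antigen, rose in PUHr from 157 ± 1.31 to 482 ± 34.2 CPM, and EPCAM, an antigen of liver progenitors, fell there from 76.6 ± 1.45 to 27.0 ± 1.35 CPM. The study reports an acquired copy number gain in PUHr cells that includes HSP90AA1, and a mutation of that gene. DLK1 lies on the same chromosome as HSP90AA1. Whether the gain covers DLK1, and its part in the DLK1 difference, was not tested. GPC3, known like AFP as a target of ZHX2 in liver, had 0 reads in all parental libraries and 7, 10 and 6 in PUHr, and was not tested. Of the 5 yolk sac and endoderm genes tested, 2 rose and 2 fell in HSP90α-KO, 1 rose and 1 fell in HSP90β-KO, and 1 rose and 1 fell in PUHr. Of 6 yolk sac markers 3 were in the knockout table, and their summed level was 42.7 to 44.3 CPM in HSP90α-KO, 14.5 to 16.7 CPM in EV and 13.5 to 13.8 CPM in HSP90β-KO. In HSP90α-KO, FOXA2 rose, GATA6 fell and CUBN did not pass the test. In the resistance table the sum of the 6 was higher in PUHr, at 23.5 to 28.1 CPM, than in parental libraries, at 16.9 to 17.1 CPM, where AFP was the higher. The part of these markers in the AFP difference was not tested.

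Receptors that bind albumin or AFP were also counted. Of 6 tested, 2 rose in HSP90α-KO, 1 rose and 2 fell in HSP90β-KO, and 2 fell in PUHr, against 10.3%, 4.48% and 10.1% of all genes changed. FCGRT, the neonatal Fc receptor that rescues albumin from degradation, had 10, 11 and 9 reads in EV, 125, 114 and 112 in HSP90α-KO, and 1 in each HSP90β-KO library. FCGRT rose in HSP90α-KO from 0.450 ± 0.0962 to 5.92 ± 0.177 CPM (log2 fold change 3.49, SE 0.26, adjusted p = 6.6e-12, limma). With 2 EV libraries at the filter it was tested there only through HSP90α-KO, and without a filter its adjusted p was 5.3e-12 (limma). In the resistance table it had 29, 43 and 31 reads in parental and 0, 1 and 1 in PUHr libraries (adjusted p = 9.5e-08, limma), and passed the filter through the parental libraries alone, with an adjusted p of 1.2e-08 without a filter (limma). FCGRT lies on chromosome 19, and its reads lay on the side of AFP and ALB in all 3 comparisons. LRP2, the endocytic receptor megalin, rose in HSP90α-KO from 0.0986 ± 0.0522 to 0.762 ± 0.197 CPM, with no EV library at the filter. It was called higher in HSP90β-KO at 0.321 ± 0.144 CPM with fewer than 3 libraries of either group at the filter, and fell in PUHr from 0.718 ± 0.220 to 0.267 ± 0.0526 CPM, with only the parental libraries at the filter. LGALS3, the lectin galectin-3, fell in HSP90β-KO from 0.890 ± 0.148 to 0.378 ± 0.178 CPM, with 1 HSP90β-KO library at the filter.

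Of 9 embryonic and fetal erythroid genes tested, 1 rose and 4 fell in HSP90α-KO, none changed in HSP90β-KO and 1 fell in PUHr, with 10.3%, 4.48% and 10.1% of all genes changed. By adjusted p alone 7 of the 9 were lower and 0 higher in PUHr, where 51.4% of all genes tested passed. In HSP90α-KO 5 were lower and 4 higher, and in HSP90β-KO 2 lower and 1 higher, beside 54.2% and 34.4% of all genes. The summed level of the 9 was 1301 to 1333 CPM in parental and 971 to 1069 CPM in PUHr libraries. In the knockout table it was 690 to 699 CPM in HSP90α-KO, 540 to 550 CPM in HSP90β-KO and 522 to 536 CPM in EV libraries. MYB, a progenitor factor, rose in HSP90α-KO from 198 ± 5.08 to 412 ± 5.80 CPM, and SOX6, a factor of red cell maturation, fell there from 20.1 ± 0.323 to 2.23 ± 0.244 CPM.

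The genes whose log2 CPM followed AFP most closely across the 9 libraries of the knockout table were sought among 12341 genes. As a description over 9 libraries in 3 groups, the highest Pearson r belonged to DNAJA1 (0.999), RIN3 (0.998), UBE2F (0.997), SEPTIN2 (0.997) and HSPA8 (0.996). DNAJA1 encodes an HSP40 co-chaperone and HSPA8 the constitutive HSP70. Their differences between groups were smaller than those of AFP. DNAJA1 stood at 137 ± 0.916 CPM in EV, 147 ± 1.36 CPM in HSP90α-KO and 98.8 ± 2.37 CPM in HSP90β-KO. HSPA8 stood at 791 ± 21.0, 912 ± 31.3 and 510.0 ± 11.6 CPM in the same order. RIN3, a guanine nucleotide exchange factor for RAB5, came nearest to AFP in range, at 16.3 ± 1.49, 27.7 ± 1.29 and 2.48 ± 0.119 CPM. In the resistance table RIN3 stood at 14.3 ± 1.05 CPM in parental and 3.68 ± 0.0551 CPM in PUHr, whereas DNAJA1 stood at 318 ± 4.20 and 321 ± 5.19 CPM. For ALB r was 0.991, for ZHX2 -0.83, for ZFHX3 -0.74 and for ZBTB20 -0.10 over the same libraries, which share their groups.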

How the data were processed

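RNA of K562 cells was sequenced as single reads from stranded mRNA libraries, 3 per group. Per the labels, the authors aligned reads with STAR to hg38, counted them with featureCounts and normalized them with edgeR (versions are not given in the sources used here), and deposited log2 CPM values in 2 tables. Whole reads were recovered from these log2 values to within 3.5e-06 reads of a whole number. Rows without a gene ID (up to 0.0363% of reads) stayed out of tests. The 2 tables were normalized separately and were tested separately.

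Genes with a log2 CPM of at least -1 in at least 3 libraries were fitted on the deposited log2 CPM with limma 3.58.1 in R 4.3.3 (eBayes with a variance trend), over all 9 or all 6 libraries of a table, and p-values were adjusted over all genes tested (Benjamini-Hochberg). Genes counted as changed had to pass both an adjusted p of 0.05 and a log2 fold change of 1 in either direction. SE is that of the fit, and log2 differences understate the change of low genes. Read ratios carry exact 95% intervals of counting error. The fit was tested on simulated data for each comparison (17039, 17039 and 16503 genes), where it called 200 of 200 genes changed by known folds and 2, 2 and 3 of the others. These known folds all lay well past the fold threshold, in genes with a mean above 1 CPM and with a small spread set between libraries. The simulation therefore says nothing about lower genes such as ALB or about differences near the threshold. Chi-square per degree of freedom between replicates was 1.15 to 3.86, so no library was counted as a duplicate. Positions come from GENCODE v44 (GRCh38), promoters from RefSeq (GRCh38.p14), matched by symbol for all 3 cluster genes.

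The 6 genes and all lists were chosen with earlier results of these data known. Named were the 6 genes, HSP90AA1 and HSP90AB1, up to 4 changed genes per list and comparison, the tested genes nearest AFP and the 5 genes most like it (mean log2 CPM of at least 1). Some further genes, such as GPC3 and HNF4A, were named after their values were seen. Alternatives were the filter, pseudocount, scaling, variance trend, replicate block, voom on whole reads and leaving out each library.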

Additional observations from a re-analysis of the deposited data

Results flagged for a closer look

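For 21 of the genes named here, all HSP90α-KO libraries lay on 1 side of all EV libraries and all HSP90β-KO libraries on the other. Of the 17039 genes tested in the knockout table, 2488 (14.6%) did so. The members, and 5 genes picked for likeness to AFP over these libraries, were chosen with these values known, so the count of 21 is not read against that share. The difference between both knockouts was not tested, and both share the EV libraries. The values that follow are the log2 fold change in HSP90α-KO minus that in HSP90β-KO. AFP (6.40) and ALB (3.62) were higher in HSP90α-KO, and ZHX2 (-3.40) and ZFHX3 (-1.59) were lower. Genes on the side of AFP were RASSF6 (4.46), FOXA2 (4.46), FCGRT (5.49), C3 (1.27) and LGALS3 (1.71). The genes picked for likeness, whose place that choice fixed, were DNAJA1 (0.57), RIN3 (3.44), UBE2F (0.90), SEPTIN2 (0.64) and HSPA8 (0.84). On the opposite side were PROX1 (-6.82), H19 (-3.73), NR2F2 (-1.30) and DLK1 (-0.99). The targeted genes HSP90AA1 (-3.74) and HSP90AB1 (0.79) also lay apart in this way, as did ZHX1 by a small difference (0.11).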

How the results depend on the processing

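AFP kept its direction and its side of the threshold in 20 alternatives in HSP90α-KO (log2 fold change 1.29 to 1.38) and in 15 in PUHr (-6.89 to -1.88). In HSP90β-KO the AFP difference shrank to -4.35 with a pseudocount of 1 CPM and to -3.05 with 5 CPM, and leaving out a library gave -5.23 to -4.90. ALB, ZHX2 and ZFHX3 kept direction and side of the adjusted p in HSP90α-KO and PUHr, but not always of the fold threshold, with a highest adjusted p of 0.030 for ALB in HSP90α-KO and 0.047 for ZHX2 in PUHr without parental replicate 3 (limma). With pseudocounts of 1 and 5 CPM, ZHX2 in HSP90α-KO shrank to -0.92 and -0.28, below the fold threshold, ALB in PUHr to -1.12 and -0.31, ALB in HSP90β-KO to -0.83 and -0.22, and ZHX2 in HSP90β-KO to 0.80 and 0.35. ALB in HSP90α-KO passed the fold threshold under quantile normalization and voom (1.03 each), without EV replicate 3 (1.02) and without HSP90α-KO replicate 1 (1.16). In HSP90β-KO, ALB was -2.40 under quantile normalization and -3.35 under voom, and in PUHr it was -5.33 under voom. Without a parental library AFP and ALB failed the filter, and those fits were repeated with the genes of the full table, a choice made after seeing the data. ZBTB20 in HSP90β-KO reversed to 0.034 under quantile normalization, and leaving out a library gave -0.17 to 0.11. ZBTB20 in PUHr had an adjusted p of 0.044 with no variance trend (limma). The number of changed genes, 1760 in HSP90α-KO, 764 in HSP90β-KO and 1660 in PUHr, became 9230, 5864 and 8480 by adjusted p alone. It became 717, 272 and 751 with a mean log2 CPM of at least 1, 823, 289 and 941 with a pseudocount of 1 CPM, and 346, 90 and 385 with 5 CPM. With no filter it was 2497 in PUHr. Equal replicate numbers did not pair the libraries (correlation of deviations -0.048 to 0.045), and the replicate block gave 1759, 763 and 1662 changed genes. Depth limits AFM, ALB in HSP90β-KO and PUHr, and AFP in PUHr, which rest on 0 to 5 reads per library.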
